A study of Mus musculus with 10 samples.

Results

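The T-box factors of organ and limb development are DNA-binding transcription factors that share 1 type of DNA-binding domain. The 10 analysed here, Tbx1, Tbx2, Tbx3, Tbx4, Tbx5, Tbx15, Tbx18, Tbx20, Tbx21 and Tbr1, were taken by symbol from the 24500 genes counted in the study, and all 10 were found. ChIP-seq was performed in E14 mouse ES cells of strain 12910la, either wild-type (control) or carrying a CRISPR-Cas9 in/del in exon 14 of Ezh2 (ex14D), a mutation meant to leave functional only the EZH2 isoform without exon 14. The labels give the mutant genotype as a knock out of exon 14 but title its libraries Ezh2KO, a name the study's methods also use for ES cells other than the exon 14 mutant, so the group rests on the genotype label. No treatment is named for either genotype. Each antibody, H3K27me3 or EZH2, gave 2 libraries per genotype, and each genotype gave 1 input library, so 10 libraries were analysed. The labels do not say whether libraries of the same genotype came from separate cultures or clones, so p-values measure the spread between these libraries only.

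EZH2 is the catalytic subunit of Polycomb repressive complex 2 (PRC2), which trimethylates lysine 27 of histone H3. In ES cells this mark lies over the promoters of many developmental regulators that are silent until lineages form. T-box factors bind the T-box element in DNA and act as activators or repressors. Tbx1 patterns the pharyngeal arches and the cardiac outflow tract, Tbx5 and Tbx20 act in the heart, Tbx2 and Tbx3 are repressors in the heart and limb, and Tbx4 and Tbx5 start outgrowth of the hindlimb and the forelimb. Tbx15 acts in the skeleton and Tbx18 in the epicardium and the somites. Tbx21 encodes T-bet, which directs type 1 helper T cells, and Tbr1 specifies deep-layer neurons of the cerebral cortex.

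H3K27me3 and input reads were counted in the 1 kb window around the 5′ most transcription start of each gene, and EZH2 reads followed gene length and were treated as counts on genes. Reads on genes numbered 594289 and 937207 in the control and 1450937 and 1248018 in the ex14D H3K27me3 libraries. They numbered 409371 and 416778 in the inputs, and 13628137 to 18403892 in the EZH2 libraries. Of all counted H3K27me3 reads, 5.65% and 5.98% lay on genes in control and 7.58% and 6.86% in ex14D. Depth and this share thus differed by genotype, and their part in the H3K27me3 changes was not tested. Levels are given as CPM, that is reads scaled to the same total of reads on genes in every library. Of 8 ES cell identity genes, 7, among them Pou5f1, Nanog and Sox2, had fewer H3K27me3 CPM than their own input in all 4 libraries, and the exception was Klf4. Most promoters lie below input in CPM, and in the TMM scaled fit over input 4 of the 8 were lower and 1 was higher. Fold changes come from edgeR with TMM scaling, which aligns the bulk of promoters, whereas CPM do not. The median log2 fold change of all 14883 promoters tested was −0.02 with TMM scaling and −0.47 with library size alone, so an H3K27me3 log2 fold change is about 0.45 lower on the CPM scale. Both scalings are relative, and no spike-in is described in the sources used here. Rose and fell therefore refer to a promoter's share beside other promoters, and a change in the total amount of H3K27me3 per cell would not be seen. By Western blot the study reports less H3K27me3 and less EZH2 protein in the mutant cells than in control. By ChIP-PCR it reports less H3K27me3 at the developmental genes it tested. A rise in share here is thus not to be read as a rise in amount.

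H3K27me3 lay over all 10 T-box promoters in both genotypes. The level was set over the input of the same genotype, with 1 CPM added to each. Over the members it ranged from 3.70 to 28.6-fold and from 3.63 to 21.1-fold in the control libraries. In the ex14D libraries it ranged from 4.32 to 20.8-fold and from 3.78 to 22.2-fold. Both control maxima were at Tbx2, whose control input held 1 read. In the edgeR fit of the 4 H3K27me3 libraries against both inputs, all 10 members were higher than input, with log2 fold changes between 3.70 for Tbx3 and 6.23 for Tbx2 and adjusted p-values of 3.21e-16 or lower. Of all 20681 promoters tested, 24.4% passed the same threshold of adjusted p under 0.05 and at least 2-fold. With library size alone the log2 fold changes over input lay between 2.00 and 4.53, and the median over all promoters tested was −1.92, against −0.22 with TMM scaling. The T-box promoters ranked above 93.1% to 99.8% of the tested promoters in this fit.

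Among the members, Tbx1 had the most H3K27me3 reads in its window and Tbx2 the fewest. That ranking is in CPM, whereas over input Tbx2 had the highest log2 fold change of the members, 6.23. In control cells the mean level was 672 CPM at Tbx1, followed by 495 CPM at Tbx21, 446 CPM at Tbx4 and 315 CPM at Tbx18. Tbx5 (275 CPM), Tbx20 (259 CPM), Tbr1 (250 CPM), Tbx3 (248 CPM) and Tbx15 (217 CPM) followed, and Tbx2 had 84.5 CPM. The libraries of neighbours in this order overlapped, except that both Tbx4 libraries were above those of Tbx18, and both Tbx15 libraries above those of Tbx2. Tbx2 shares its window with a neighbour, whose part in this low level was not tested. In the RefSeq annotation the start of 2610027K06Rik, on the opposite strand, lies 227 bp from that of Tbx2, and 774 bp of the Tbx2 window belong to both genes. The inputs held 1 and 3 reads at Tbx2 and 12 to 27 at each of the other 9 members. In ex14D cells the order changed. Tbx1 (1104 CPM) stayed first, Tbx4 (683 CPM), Tbx20 (414 CPM) and Tbx5 (373 CPM) came next without overlap between neighbours, and Tbx21 (317 CPM) followed, again without overlap.

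**Figure D1:**
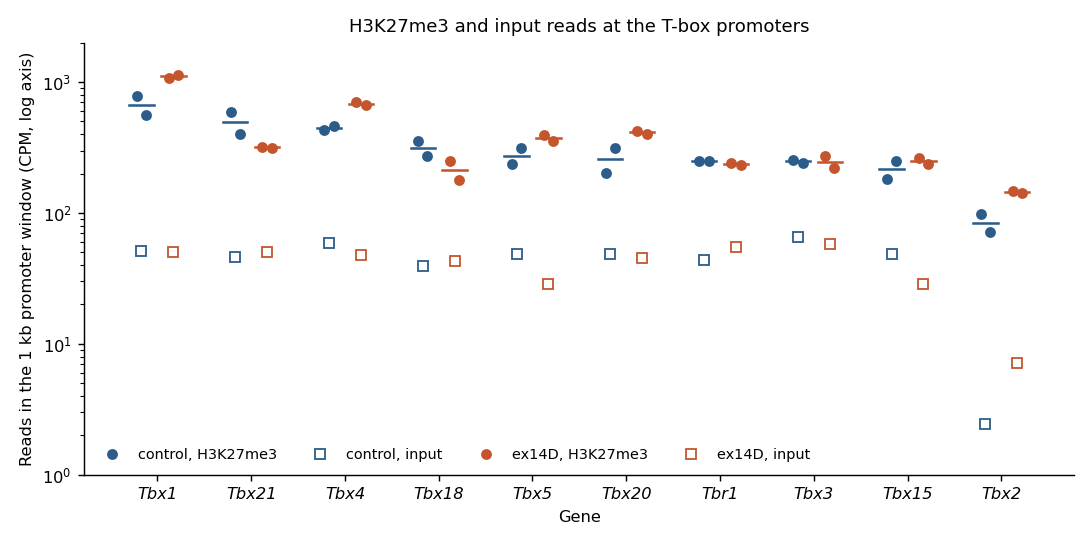
Reads in the 1 kb promoter window, in CPM on a log axis, for the 10 T-box genes in order of their control mean. Filled circles are single H3K27me3 libraries, lines are means of 2, and open squares are the input of the same genotype. Every H3K27me3 library lies above its input, and Tbx1, Tbx4, Tbx5, Tbx20 and Tbx2 have both ex14D libraries above both control libraries.

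Promoter sequence is shown for 4 members that contrast in level and change: Tbx1 and Tbx20, at which H3K27me3 rose in ex14D, Tbx21, which had a high control level and no called change, and Tbr1, whose EZH2 reads had the lowest fold change. Each sequence is the 250 bases before the 5′ most start, 5′ to 3′ on the strand of the gene, from RefSeq on GRCm38.p6, with each CG in capitals because stretches rich in CG are a common feature of PRC2-bound promoters. They lie at chr16:18590672-18590921 (reverse strand), chr9:24774304-24774553 (reverse strand), chr11:97115332-97115581 (reverse strand) and chr2:61804203-61804452 (forward strand).
Tbx1: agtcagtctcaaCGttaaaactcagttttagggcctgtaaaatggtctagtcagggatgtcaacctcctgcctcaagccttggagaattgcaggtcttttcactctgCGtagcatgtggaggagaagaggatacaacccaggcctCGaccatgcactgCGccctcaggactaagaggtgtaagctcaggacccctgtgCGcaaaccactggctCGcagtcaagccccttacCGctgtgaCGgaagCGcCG
Tbx20: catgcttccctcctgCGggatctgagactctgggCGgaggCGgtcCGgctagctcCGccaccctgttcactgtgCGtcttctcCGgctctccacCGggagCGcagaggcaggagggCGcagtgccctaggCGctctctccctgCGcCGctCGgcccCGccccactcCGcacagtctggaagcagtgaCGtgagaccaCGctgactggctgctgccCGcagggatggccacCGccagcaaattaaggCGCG
Tbx21: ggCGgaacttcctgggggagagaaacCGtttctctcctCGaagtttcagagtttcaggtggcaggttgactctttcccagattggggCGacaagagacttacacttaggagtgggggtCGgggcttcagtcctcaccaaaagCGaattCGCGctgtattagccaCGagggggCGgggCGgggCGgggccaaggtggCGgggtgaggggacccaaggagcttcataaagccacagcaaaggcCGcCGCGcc
Tbr1: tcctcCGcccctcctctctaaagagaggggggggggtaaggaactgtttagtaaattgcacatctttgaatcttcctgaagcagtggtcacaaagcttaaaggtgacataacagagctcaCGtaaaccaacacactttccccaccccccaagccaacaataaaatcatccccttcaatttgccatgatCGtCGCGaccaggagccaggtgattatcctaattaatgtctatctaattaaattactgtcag
The count of CG in these 250 bases was 10 for Tbx1, 22 for Tbx20, 16 for Tbx21 and 5 for Tbr1, and it was 15 for Tbx18, the only other member with an entry at its 5′ most start. Over 32851 promoters of the same length the median was 6, and 92.1% held at least 1 CG. In these bases Tbx20 thus had more CG than 85.2% of promoters and Tbr1 more than 44.4%. Both carried the mark, and CG in the rest of the marked region was not counted. Tbx1 has a further annotated start 1772 bp downstream, whose 250 bases held 17 CG. The Tbx4 entry lies at a start 10398 bp downstream of the annotated start of the gene and held 6. Tbx2, Tbx3, Tbx5 and Tbx15 had no entry.

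The change of H3K27me3 between genotypes was then read for each member from the fit across all promoters. H3K27me3 rose in ex14D at 5 of the 10 promoters, those of Tbx1, Tbx2, Tbx4, Tbx5 and Tbx20, and fell at none by edgeR's quasi-likelihood test (adjusted p threshold 0.05). At an unadjusted p under 0.05 none fell either, and DESeq2 called the same count in each direction, 5 and 0. Of all promoters tested, 5.85% were called higher and 3.19% lower. Among the 5051 tested promoters called over input, as all members were, the shares were 16.4% higher and 5.09% lower. The median log2 fold change was 0.76 over the members, 0.10 over the promoters called over input and −0.02 over all promoters.

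Tbx1, the pharyngeal and outflow tract factor (chr16:18580979-18590671, reverse strand), had 779 and 564 CPM in the control libraries and 1068 and 1141 CPM in the ex14D libraries. Both ex14D libraries were above both control libraries, and the 4 values were the highest of any member in each library. The log2 fold change was 1.17 ± 0.21 (SE, n = 2 per genotype), a 2.25-fold rise (edgeR adjusted p = 0.00036). At Tbx20, the cardiac factor (chr9:24720812-24774303, reverse strand), the control libraries had 202 and 316 CPM and the ex14D libraries 426 and 402 CPM. The groups did not overlap, and the log2 fold change was 1.11 ± 0.21 (edgeR adjusted p = 0.0008).

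Of the linked pairs Tbx2 with Tbx4 and Tbx3 with Tbx5, Tbx2, Tbx4 and Tbx5 rose and Tbx3, described further on, had no called change. Tbx4, the hindlimb and lung factor (chr11:85886367-85916097, forward strand), went from 429 and 462 CPM to 701 and 665 CPM, with a log2 fold change of 1.06 ± 0.19 (edgeR adjusted p = 0.00047). Tbx5, the forelimb and heart factor (chr5:119834663-119885218, forward strand), went from 236 and 314 CPM to 394 and 353 CPM, and the log2 fold change was 0.88 ± 0.20 (edgeR adjusted p = 0.0048). In both genes the lower ex14D library was above the higher control library, by a smaller margin at Tbx5 than at Tbx4. Tbx2, a repressor that lies next to Tbx4 (chr11:85832615-85841948, forward strand), had 97.6 and 71.5 CPM in control and 148 and 141 CPM in ex14D. These were 58, 67, 215 and 176 reads, the lowest counts of the list, and the log2 fold change was 1.24 ± 0.25 (edgeR adjusted p = 0.0014). Over the input of the same genotype Tbx2 went the other way, from 28.6 and 21.1-fold in control to 18.2 and 17.3-fold in ex14D. Those inputs held only 1 read in control and 3 in ex14D.

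The other 5 promoters had no called change. Tbx15, the skeletal factor (chr3:99253760-99354260, forward strand), had 183 and 250 CPM in control and 261 and 236 CPM in ex14D, so the genotypes overlapped in CPM. Its log2 fold change of 0.64 ± 0.21 was just outside the threshold (edgeR adjusted p = 0.053). Tbx3, a repressor that is also active in ES cells (chr5:119670862-119684724, forward strand), had 254 and 242 CPM in control and 272 and 220 CPM in ex14D, and Tbr1, the cortical factor (chr2:61804453-61814114, forward strand), had 251 and 249 CPM against 242 and 234 CPM. At both genes the libraries were close to each other, with log2 fold changes of 0.44 ± 0.20 for Tbx3 (edgeR adjusted p = 0.21) and 0.38 ± 0.20 for Tbr1 (edgeR adjusted p = 0.29). With library size alone, the fold changes of Tbx3 and Tbr1 turned to −0.0077 and −0.069.

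Tbx21 and Tbx18 were the only members with a negative fold change. Tbx21, the T-bet gene (chr11:97098007-97115331, reverse strand), had 591 and 400 CPM in control and 320 and 314 CPM in ex14D. Tbx18, the epicardial and somite factor (chr9:87702800-87731260, reverse strand), had 357 and 274 CPM in control and 248 and 179 CPM in ex14D. In CPM both ex14D libraries were below both control libraries at each gene, but after TMM scaling the genotypes overlapped at both. The log2 fold changes were −0.19 ± 0.21 for Tbx21 (edgeR adjusted p = 0.69) and −0.11 ± 0.21 for Tbx18 (edgeR adjusted p = 0.84). With library size alone Tbx21 passed the threshold as lower, at −0.63 ± 0.20 (edgeR adjusted p = 0.030), and Tbx18 did not, at −0.55 ± 0.22 (edgeR adjusted p = 0.076). Leaving out control replicate 1, the library with the higher level of both genes, turned both to positive values, 0.089 for Tbx21 and 0.063 for Tbx18, and leaving out ex14D replicate 2 turned Tbx18 to 0.11.

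In CPM, without any model, 5 of the 10 members were higher in both ex14D than in both control libraries, against 9.10% of promoters tested, and 3 were lower, against 51.2%. With TMM scaled CPM 8 were higher, Tbx3, Tbx15 and Tbr1 in addition, against 23.0%, and none was lower, against 25.8%, so that Tbr1 was lower on one scale and higher on the other. The members called higher depended in part on the scaling and on single libraries. With library size alone Tbx1, Tbx2, Tbx4 and Tbx20 stayed called and Tbx5 did not (log2 fold change 0.43, adjusted p = 0.14), and the median over the members was 0.31. Leaving out control replicate 2 left 2 calls, Tbx4 and Tbx20, with Tbx1 at 0.90 (edgeR adjusted p = 0.064), Tbx2 at 0.97 (0.089) and Tbx5 at 1.06 (0.053). Leaving out ex14D replicate 1 left 3, without Tbx2 and Tbx5, and leaving out ex14D replicate 2 left 4, without Tbx5.

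**Figure D2:**
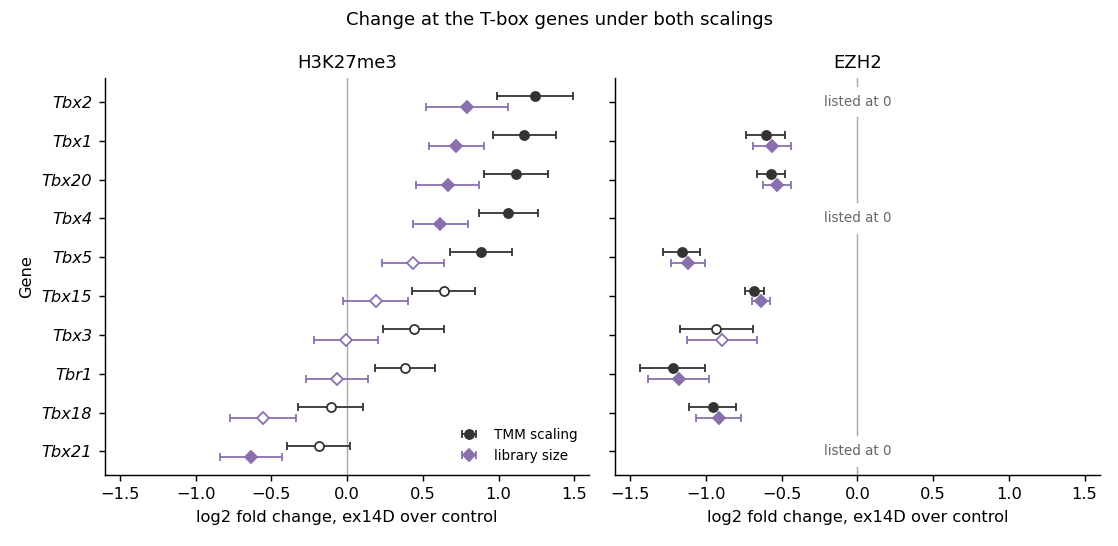
Log2 fold change of ex14D over control for H3K27me3 in the promoter window (left) and EZH2 on the gene (right), with the standard error, under TMM scaling (circles) and library size alone (diamonds). Filled symbols passed an adjusted p of 0.05 in edgeR. H3K27me3 values spread from −0.19 to 1.24 with TMM scaling, whereas the 7 genes with EZH2 counts all lie between −1.22 and −0.57.

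EZH2 levels differed between the members by more than an order of magnitude. Because EZH2 reads followed gene length (rank correlation with gene length of 0.89 to 0.92 over 13878 genes in each library, given as a description because genes share a library), levels between genes are given as CPM per kb of gene. In control cells Tbx1 had a mean of 50.1, Tbr1 16.8, Tbx3 11.7, Tbx18 5.46, Tbx5 3.32, Tbx20 2.06 and Tbx15 1.96, against a median over genes of 0.966 in both control libraries. Each of these 7 was above at least 93.1% of the genes with counts, and Tbx1 above 99.5%. A value per kb averages over the whole gene. The highest 3 belonged to genes of 9.69, 9.66 and 13.9 kb that lay inside EZH2 domains over their full length in control, and the lowest 2 to genes of 53.5 and 100.5 kb, of which domains covered 8.20% to 9.91% in control.

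Tbx2, Tbx4 and Tbx21 are listed at 0 in all 4 EZH2 libraries. All 3 lie on chromosome 11, in a run of 1389 consecutive genes over 66.3 Mb that are listed at 0 in every EZH2 library. The authors' EZH2 domains nevertheless lie over the promoters of 144 genes of this run in all 4 libraries, those of Tbx2, Tbx4 and Tbx21 among them, so the listed 0 gives no EZH2 level for these genes. Of all 24500 genes, 43.2% were at 0 in all 4 EZH2 libraries.

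EZH2 fell in ex14D at 6 of the 7 T-box genes with counts, Tbr1, Tbx5, Tbx18, Tbx15, Tbx1 and Tbx20, by edgeR's quasi-likelihood test, and rose at none. No member rose at an unadjusted p under 0.05 or by DESeq2, which also called 6 lower. Of the 13401 genes tested, 7.88% were called lower and 0.0522% higher, and among the 2414 tested genes with a domain over the promoter in both control libraries 39.0% were called lower. The median log2 fold change was −0.93 over the 7 members, −0.22 over those 2414 genes and 0.02 over all genes tested. In CPM all 7 were lower in both ex14D than in both control libraries, against 18.0% of the genes tested, and none was higher in both, against 35.6%. With TMM scaled CPM all 7 were again lower, against 23.0%, and none higher, against 24.2%.

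Tbr1 had 163 and 162 CPM of EZH2 in the control libraries and 91.4 and 52.5 CPM in the ex14D libraries. Tbx5 went from 171 and 165 CPM to 88.7 and 66.3 CPM. The control libraries of both genes agreed closely, the ex14D libraries lay apart, with replicate 2 lower, and no ex14D value reached a control value. The log2 fold changes were −1.22 ± 0.21 for Tbr1 (edgeR adjusted p = 0.014) and −1.16 ± 0.12 for Tbx5 (edgeR adjusted p = 0.0036), 2.33 and 2.24-fold lower.

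At Tbx18, EZH2 was 158 and 152 CPM in control and 98.6 and 66.5 CPM in ex14D (log2 fold change −0.96 ± 0.16, edgeR adjusted p = 0.011). Tbx15 had 206 and 189 CPM against 132 and 122 CPM (−0.68 ± 0.06, edgeR adjusted p = 0.0034). Tbx1 had 485 and 486 CPM against 382 and 275 CPM (−0.61 ± 0.13, edgeR adjusted p = 0.030), and Tbx20 had 118 and 103 CPM against 82.4 and 70.6 CPM (−0.57 ± 0.09, edgeR adjusted p = 0.011). Replicate 2 was the lower ex14D library at every one of these genes. Reads outside the EZH2 domains enter these fold changes, and in control domains covered only 8.20% to 9.91% of Tbx15 and Tbx20. Sizes of change are therefore not comparable between genes. Tbx3 did not pass the threshold, with 164 and 160 CPM in control and 115 and 60.7 CPM in ex14D (−0.93 ± 0.24, edgeR adjusted p = 0.066). Its ex14D libraries lay farther from each other than the nearer one lay from control.

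Among the genes with lower EZH2 reads, Tbx1, Tbx5 and Tbx20 were also among those with more H3K27me3 at the promoter, and the other 3, Tbx15, Tbx18 and Tbr1, had no called H3K27me3 change. The antibodies were counted over different intervals and scaled apart, so these values stand side by side and were not tested against each other. The EZH2 calls needed both control libraries. Without control replicate 1 or without control replicate 2 none of the 7 members passed in edgeR (adjusted p from 0.16 to 0.46), nor did any other gene of the table, although 6 members were lower at an unadjusted p under 0.05 in each case, and log2 fold changes stayed between −1.22 and −0.47. With ex14D replicate 1 or ex14D replicate 2 left out instead, all 7 passed, Tbx3 included at −1.48 and −0.53, but the sizes moved. The median over the 7 was −1.29 without ex14D replicate 1 and −0.62 without ex14D replicate 2, and Tbx1 was at −0.89 and −0.38. In these settings the lone library is assumed to vary like the others.

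**Figure D3:**
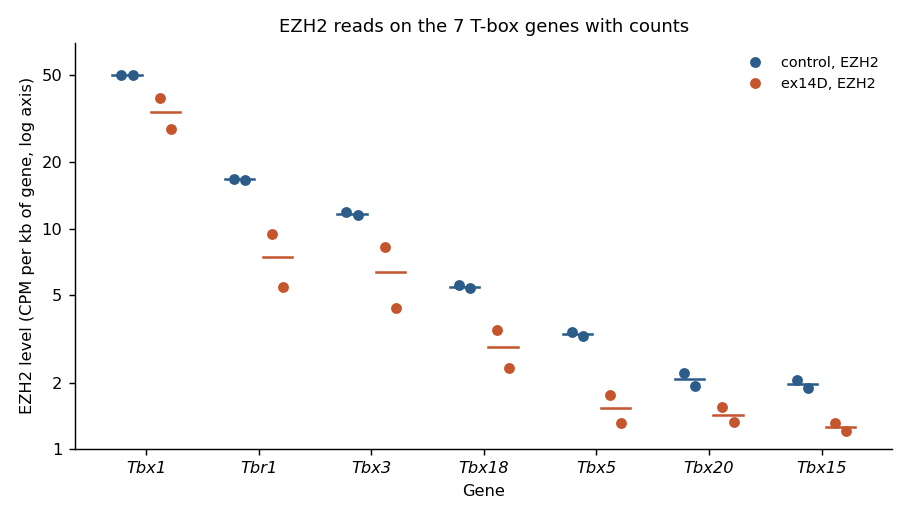
EZH2 level in CPM per kb of gene, on a log axis, for the 7 T-box genes with EZH2 counts in order of their control mean. Circles are single libraries and lines are means of 2. At every gene both ex14D libraries lie below both control libraries. On the log axis the control libraries lie closer together than the ex14D libraries at every gene but Tbx15, and at Tbx20 only by little.

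The authors' peaks and domains were used to ask how far the mark and EZH2 reached around each start. A MACS2 broad peak of H3K27me3 covered the promoter window of all 10 members in every library, against 18.0% of 24343 placed genes in both control libraries and 16.6% in both ex14D libraries. An EZH2 domain did so for all 10 as well, against 16.8% of genes in control and 10.4% in ex14D. Peaks over the T-box promoters were wide. Their median width was 18.6 and 19.96 kb in control and 18.8 and 16.8 kb in ex14D, against 4.14 to 6.45 kb over the 3679 genes with a peak in all 4 libraries. EZH2 domains, given in steps of 1 kb, had a median of 14.5 and 16 kb in control and 13.5 kb in both ex14D libraries, against 3 to 5 kb over 2529 genes.

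Tbx3 had the widest intervals of the list and Tbx21 the narrowest. The H3K27me3 peak at Tbx3 measured 39.2 and 42.4 kb in control and 39.6 and 38.4 kb in ex14D, and its EZH2 domain 36 and 37 kb in control and 33 kb in both ex14D libraries. At Tbx21 the peak measured 8.43 and 9.21 kb in control and 6.66 and 5.80 kb in ex14D, and the domain 3 and 4 kb in control and 3 and 2 kb in ex14D. Tbx3 thus had a peak more than 4 times as wide as that of Tbx21 in both control libraries, while its promoter window held fewer H3K27me3 reads. Tbx1, Tbx2 and Tbx3 lay inside peaks and domains over their whole length in all 8 libraries.

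The intervals were placed differently around the start. At Tbr1 the H3K27me3 peak reached 0.60 to 1.86 kb upstream and 13.2 to 16.3 kb downstream, past the end of the gene. At Tbx15 it reached 19.5 to 20.3 kb upstream and 8.21 to 9.94 kb downstream, so that most of it lay outside the gene, and it covered 8.17% to 10.2% of the gene body. Tbx18 and Tbx20 also had more of the peak upstream, 12.2 to 13.6 kb against 5.14 to 5.90 kb downstream at Tbx18, and 8.54 to 9.86 kb against 5.56 to 6.35 kb at Tbx20.

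EZH2 domains were narrower in both ex14D than in both control libraries at 6 of the 10 members, Tbx2, Tbx3, Tbx4, Tbx5, Tbx15 and Tbr1, and wider at none. Over genes with a domain in all 4 libraries the shares were 44.3% and 0%. H3K27me3 peaks were narrower at 4 members, Tbx2, Tbx18, Tbx21 and Tbr1, against 38.0% of genes, and wider at none, against 2.36%. The domain over Tbr1 was 14 kb in both control libraries and 13 and 4 kb in ex14D, that over Tbx5 17 kb in both control libraries and 12 and 11 kb in ex14D, and that over Tbx15 29 and 28 kb in control and 11 and 24 kb in ex14D. In the narrow ex14D libraries of Tbr1 and Tbx15 the remainder of the region held a separate domain. At Tbx18 the domain was 14 kb in all 4 libraries, although EZH2 reads on the gene fell. Intervals were called in each library on its own, and their number over the genome ranged from 9465 to 19978 for H3K27me3 and from 4122 to 7704 for EZH2.

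**Figure D4:**
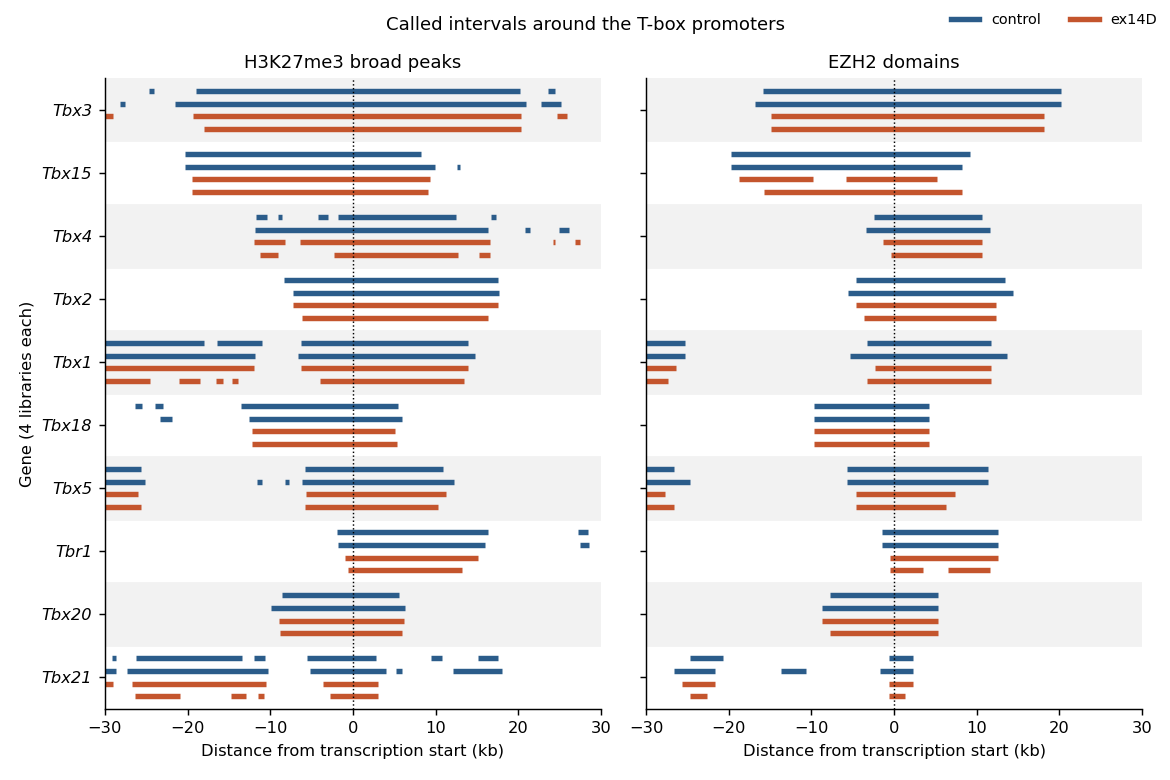
H3K27me3 broad peaks (left) and EZH2 domains (right) within 30 kb of the 5′ most start of each T-box gene, with the direction of transcription to the right. Each gene has 4 lines, control replicates 1 and 2 (blue) above ex14D replicates 1 and 2 (orange). Every library has an interval over the start, from 5.80 kb at Tbx21 to 42.4 kb at Tbx3 for H3K27me3, and the EZH2 domain over Tbr1 is broken in 1 ex14D library.

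Tbx2 with Tbx4 and Tbx3 with Tbx5 are linked pairs, thought to descend from 1 ancestral pair of neighbouring genes. The space between Tbx2 and Tbx4 (chr11:85841949-85886366) measures 44.4 kb, and H3K27me3 peaks covered 29.4% and 45.5% of it in control and 41.3% and 25.9% in ex14D. EZH2 domains covered 14.4% and 19.0% of it in control and 9.95% and 7.70% in ex14D. Between Tbx3 and Tbx5 (chr5:119684725-119834662), 149.9 kb apart, peaks covered 22.9% and 31.0% in the control libraries against 23.1% and 19.0% in the ex14D libraries. Domains covered 17.3% and 20.6% there in control, and 13.3% in both ex14D libraries. EZH2 coverage was lower in both ex14D than in both control libraries for each pair. The same held over the genome, where EZH2 domains covered 21.6 and 35.4 Mb in control and 15.1 and 19.7 Mb in ex14D. H3K27me3 coverage overlapped between the genotypes at the first pair and also at the second.

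Of 7 other T-box genes, T and Eomes, which act in early mesoderm, carried the mark, and Tbx6, Tbx10, Tbx19, Tbx22 and Mga did not pass the threshold over input. H3K27me3 rose at both, with 533 and 442 CPM in control and 690 and 723 CPM in ex14D for T (log2 fold change 0.99 ± 0.20, edgeR adjusted p = 0.0014), and 468 and 412 CPM against 655 and 714 CPM for Eomes (1.09 ± 0.20, edgeR adjusted p = 0.00046). EZH2 fell at both, from 49.3 and 48.1 CPM to 32.4 and 22.2 CPM at T (−0.89 ± 0.15, edgeR adjusted p = 0.012) and from 98.5 and 95.3 CPM to 60.2 and 42.3 CPM at Eomes (−0.96 ± 0.14, edgeR adjusted p = 0.0082). These are the directions seen at Tbx1, Tbx5 and Tbx20. The H3K27me3 calls of T and Eomes were lost without control replicate 2, and their EZH2 calls without control replicate 1 or control replicate 2. The other 5 had H3K27me3 levels of 2.07 to 26.9 CPM, below their own inputs in every library in CPM. In the TMM scaled fit over input they lay between −0.79 for Tbx6 and 0.60 for Tbx10 on the log2 scale.

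Genes of the tissues or cell types in which the T-box factors act were read from the same fits as partner genes. Their counts stand beside 24.4% of all promoters called over input, 5.85% called higher and 3.19% lower in H3K27me3 (16.4% and 5.09% of promoters called over input), and 7.88% of genes called lower in EZH2 (39.0% of genes with a domain in both control libraries). Of 15 limb genes, 14 were called over input, and H3K27me3 rose at 11 and fell at 1 (median log2 fold change 0.97, and 0.52 with library size alone). Lmx1b, which sets dorsal identity in the limb, had the highest rise of the list, from 380 and 232 CPM to 624 and 800 CPM (1.68 ± 0.23, edgeR adjusted p = 2.04e-05). Sall1, a zinc finger repressor, was the gene that fell, with 257 and 35.2 CPM in control and 19.99 and 12.8 CPM in ex14D, so that its control libraries lay far apart (−2.64 ± 0.54, edgeR adjusted p = 0.0015). Without control replicate 1 its log2 fold change was −0.66 (edgeR adjusted p = 0.35), and DESeq2 did not call it (adjusted p = 0.12). The rise of Lmx1b was not called without control replicate 2. EZH2 fell at 6 of the 9 limb genes tested, with the lowest values at En1 (−1.13 ± 0.26) and Msx2 (−0.95 ± 0.12). DESeq2 did not call En1 (adjusted p = 0.28), which ranged from −1.73 to −0.70 with 1 library left out.

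Of 13 heart genes, 11 were called over input, and H3K27me3 rose at 6 and fell at none (median 0.62, and 0.18 with library size alone). Gata6, a zinc finger factor, rose from 30.3 and 27.7 CPM to 59.3 and 50.5 CPM (1.37 ± 0.33, edgeR adjusted p = 0.0076), and Nkx2-5, the cardiac homeobox gene, from 350 and 420 CPM to 640 and 586 CPM (1.12 ± 0.20, edgeR adjusted p = 0.00034). The Gata6 call was lost in 5 settings, with library size alone (0.93, edgeR adjusted p = 0.074), with all counted reads as library size (0.077), and without control replicate 2 (0.13), ex14D replicate 1 (0.15) or ex14D replicate 2 (0.056). EZH2 fell at 5 of 8 heart genes tested, among them Irx4 (−1.20 ± 0.18) and Bmp4 (−1.20 ± 0.19).

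Of 11 genes of cortical neurons, 9 were called over input, and H3K27me3 rose at 5 (median 0.99, and 0.54 with library size alone). The highest rises were at Emx2 (1.69 ± 0.36) and Emx1 (1.48 ± 0.22). Emx2 had a low level, 16.8 and 25.6 CPM in control and 59.96 and 43.3 CPM in ex14D. Emx1 had 597 and 433 CPM in control and 926 and 1167 CPM in ex14D. EZH2 fell at 4 of 9, with the lowest values at Fezf2 (−0.90 ± 0.15) and Neurog2 (−0.83 ± 0.16). Emx2 was not called without control replicate 2 (edgeR adjusted p = 0.074) or ex14D replicate 1 (0.062), nor Emx1 without control replicate 2 (0.054). Of 9 helper T cell genes listed beside Tbx21, 4 were called over input. H3K27me3 rose at 1, Gata3 (1.13 ± 0.20), and the median over the 9 was 0.06, or −0.39 with library size alone. EZH2 fell at 3 of 6, with Hlx (−1.18 ± 0.23) and Gata3 (−0.88 ± 0.15) the lowest, and DESeq2 did not call Hlx (adjusted p = 0.11). None of these EZH2 calls at partner genes passed without control replicate 1 or without control replicate 2.

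Outside the T-box family, the 3 genes whose H3K27me3 and input levels were most like the median profile of the members were Hoxc4, Mfsd4a and Penk. Likeness was the Euclidean distance of log2(CPM + 1) over 6 libraries, 4 of H3K27me3 and 2 inputs, and was 0.19, 0.21 and 0.24. Among the members themselves Tbr1 (0.51) and Tbx3 (0.67) were nearest to this profile, and Tbx1 (3.35) and Tbx2 (5.40) farthest. None of the 3 genes had a called H3K27me3 change, with log2 fold changes of 0.50 to 0.60 (edgeR adjusted p from 0.063 to 0.12).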

How the data were processed

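The authors aligned ChIP-seq reads to mm10 with Bowtie and used htseq-count to count reads per gene. Their deposited counts are whole numbers and were not normalized. Per the labels' processing notes, Trimmomatic, Bowtie2, MACS2, ChIPseeker and HTSeq were used (versions not given in the sources used here). The deposited MACS2 broad peaks of H3K27me3 give a fold enrichment over background (a ratio) and the −log10 p-value and −log10 q-value, called per library. The deposited hiddenDomains intervals of EZH2 give positions only. Those of H3K27me3 run past chromosome ends of GRCm38 and were not used here.

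Libraries were grouped by genotype and antibody from the labels. Counts were compared with edgeR 4.0.16 in R 4.3.3 (quasi-likelihood F test after TMM scaling and filterByExpr, with p-values adjusted by Benjamini-Hochberg over all genes tested and a threshold of 0.05). Approximate standard errors were taken as the log2 fold change over the square root of F. The fit over input had genotype as a further term. Reads on no gene (92.0% to 94.0% of H3K27me3 reads, 97.9% to 98.0% of input reads and 33.8% to 34.9% of EZH2 reads) did not enter library sizes. Nor did reads on several genes, 0.32% to 0.45% of H3K27me3 reads, 0.14% to 0.15% of input reads and 21.2% to 21.9% of EZH2 reads. Starts came from RefSeq on GRCm38, where 24343 of 24500 genes were placed, and a gene counted as covered when an interval overlapped its 1 kb window by at least 1 bp. Alternatives covered scaling, DESeq2 1.42.0, the low count filter, replicate blocks and each library left out. The fits were tested on simulated counts, drawn with the same spread for all genes and no shift in scaling between the groups compared. Such counts cannot decide between the scalings or show how genes that differ in spread behave.

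The members and gene lists were chosen with earlier results of these data known. Named were all members, the T-box genes that passed a test, in each list of partner genes at most the 2 with the largest fold change in either direction, and the 3 genes most like the members. A list of partner genes is not reported here.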

Additional observations from a re-analysis of the deposited data

How the results depend on the processing

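The direction of the members' median log2 fold change held under every alternative run for both antibodies. With library size alone the H3K27me3 median fell from 0.76 to 0.31, 1 member (Tbx21) was called lower, and Tbr1 (−0.069) and Tbx3 (−0.0077) changed sign. Centring on unmarked promoters added Tbx15 to the members called higher. Leaving out 1 library gave 2 to 5 members called higher in H3K27me3 and medians of 0.56 to 0.87, with Tbx18 between −0.36 and 0.11 and Tbx21 between −0.50 and 0.089, and 0 to 7 members called lower in EZH2, with medians of −1.29 to −0.62. Libraries with the same replicate number did not deviate together over genes (correlation −0.10 for H3K27me3 and −0.03 for EZH2). With 2 libraries per genotype this cannot tell whether they shared a culture or batch. With the replicate block, 5 members stayed called higher in H3K27me3 (median 0.78) and 6 lower in EZH2 (median −0.98), and the block moved the calls over all genes from 871 higher and 475 lower to 755 and 406 for H3K27me3, and from 7 and 1056 to 3 and 852 for EZH2. The crossed pairing, chosen after seeing the data, gave 6 members higher in H3K27me3 and 6 lower in EZH2. The fit over input called all 10 members in each alternative run, and no block could be fitted there because each genotype has 1 input. Keeping only peaks with q under 0.001 left 7 promoters with a peak in both control libraries (Tbx1, Tbx5 and Tbx21 lost 1 library each), and overlap of at least 500 bp changed no count of peaks or domains. Counts at Tbx2 (58 to 215 H3K27me3 reads, 1 and 3 input reads) limit its precision.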
